A study of Canis lupus familiaris with 34 samples.

Results

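Primary osteosarcomas of the dog were ordered by ATP6V0D2, which encodes the d2 subunit of the vacuolar proton pump that osteoclasts use to acidify bone, and the 9 tumours with the highest level were compared with the 9 with the lowest. These 18 tumours came from 28 primary tumours and from a series of 34 libraries. They were chosen by this measured level alone. The rule takes log2(FPKM + 1), where FPKM is a count of fragments scaled by transcript length and library size. It averages library DOS.46 with DOS.46.2 and DOS.100 with DOS.32, and leaves out the metastasis DOS.6M. Total RNA of bone tumours was sequenced, and the labels give every library the breed Golden Retriever, while the series design also names Rottweilers. The labels record no treatment or age, and give nothing by which the high tumours differ from the low ones. The high group was DOS.28, DOS.37, DOS.114, DOS.46 with DOS.46.2, DOS.85, DOS.76, DOS.73, DOS.70 and DOS.78. The low group was DOS.6, DOS.113, DOS.115, DOS.84, DOS.116, DOS.112, DOS.56, DOS.90 and DOS.100 with DOS.32.

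Osteoclasts are large cells with many nuclei that form by fusion of precursors of the macrophage lineage and dissolve bone. The cytokine RANKL (TNFSF11), made by osteoblasts, osteocytes and stromal cells, binds its receptor RANK (TNFRSF11A) on the precursor, while CSF1 keeps the precursor alive through CSF1R and the decoy receptor osteoprotegerin (TNFRSF11B) captures RANKL. The mature cell seals off a patch of bone, pumps protons onto it through the vacuolar ATPase, balances the charge and the bicarbonate through further transporters, and secretes proteases that digest the exposed matrix. Osteosarcoma grows in bone and often holds such cells among the tumour cells.

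ATP6V0D2 chose the groups, so its own values are a description and were not tested. It stood at a lowest value of 18.7 FPKM, a median of 36.9 and a highest of 55.5 in the 9 high tumours, and at 0.0381, 0.150 and 1.77 FPKM in the 9 low ones. The 10 tumours between them ran from 2.2 to 17.2 FPKM, with a median of 8.14. The edges of the groups were close to their neighbours, with DOS.78 at 18.7 inside the high group against DOS.101 at 17.2 outside, and DOS.6 at 1.77 inside the low group against DOS.110 at 2.2 outside. The plot of ATP6V0D2 by tumour shows a gradual decline without a gap at either edge. In the osteoblast culture (CNOB), the gene was at 0.0782 FPKM. In the osteosarcoma cell lines it was at 0.00763 FPKM in OSCA.8 and was listed at 0 in OSCA.78. The metastasis DOS.6M, whose title shares its number with the low tumour DOS.6, had 0.369 FPKM.

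**Figure D1:**
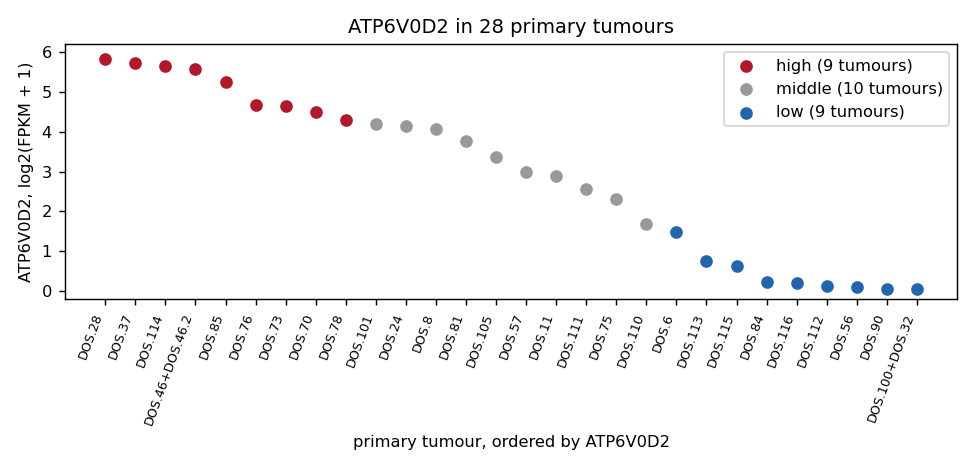
ATP6V0D2 level, as log2(FPKM + 1), in each of 28 primary tumours ordered from high to low; colours mark the 9 high, 10 middle and 9 low tumours. Levels decline without a gap at either group edge, from 55.5 FPKM in DOS.28 to 0.0381 FPKM in DOS.100 with DOS.32.

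The 30 primary tumour libraries summed to between 479053 and 837067 FPKM, and read depth is unknown. No difference between the groups was detected in summed FPKM, the upper quartile, the number of genes above 0 or the share of the 10 most abundant genes (exact two-sided permutation test over 48620 splits, unadjusted p between 0.194 and 0.703, adjusted p = 0.703 for each). As a description across genes, which are not independent, libraries centred on their common mean correlated at r = 0.844 for DOS.100 and DOS.32, whose titles do not match, at 0.731 for DOS.46 and DOS.46.2, and at 0.671 for DOS.110 and DOS.115, against a median of -0.0391 over 435 pairs. DOS.115 was in the low group and DOS.110 among the middle tumours, and both entered as separate tumours. Nothing in the labels says that tumours came from separate dogs, so p-values measure the spread between these samples. COL1A2, a chain of the main bone collagen, ran from 3953 to 21005 FPKM in the high group and from 2869.7 to 19996 FPKM in the low group.

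The test asked which other genes went with ATP6V0D2. Of 14911 genes tested, 119 were higher in the high group (0.798%) and 10 were lower (0.0671%) by limma at an adjusted p under 0.05. Of the 119, 45 had groups that did not overlap (0.302% of all genes tested), and none of the 10 lower genes did. The median log2 difference over all genes was -0.01, and 1578 of the 14911 genes had an unadjusted limma p under 0.05. A call says that a gene's level went with that of ATP6V0D2 in the same libraries, and in bulk tissue fewer cells of a type and less RNA per cell cannot be told apart. The plot of difference against p shows the calls almost all on the right, with OCSTAMP, PTPN22 and MMP1 among the farthest named points.

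**Figure D2:**
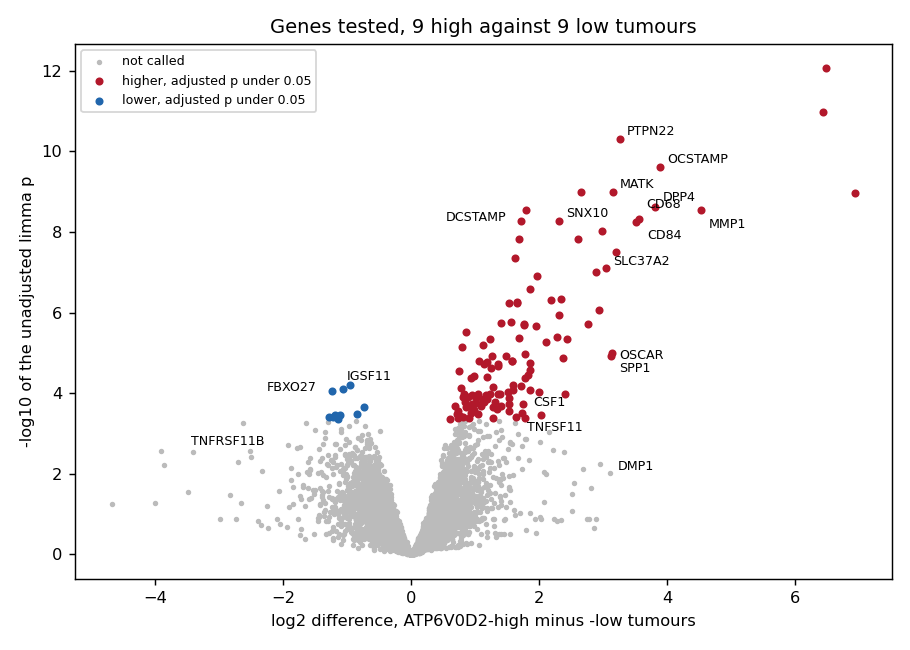
Each point is 1 of 14911 genes tested, by its log2 difference between the 9 high and 9 low tumours and the -log10 of its unadjusted limma p; 119 called genes lie to the right in red and 10 to the left in blue. The 3 points farthest to the right carry only Ensembl identifiers.

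Among the proton pump subunits, 5 of 18 measured members were higher and 0 lower, with a median log2 difference of 0.75 over the list. In limma without adjustment, 12 of the 18 had a p under 0.05, and 1578 of all 14911 genes tested did. Counts at an unadjusted p in the later lists stand against that same share. The counts called higher in this and the later lists stand against 0.798% of all genes tested. The lists were chosen with earlier results of these data known. The pump has a membrane sector, V0, that carries protons and a peripheral sector, V1, that splits ATP. The a3 subunit TCIRG1, which places the pump in the osteoclast's border membrane, ran from 36.3 to 153 FPKM with a median of 90.9 in the high group and from 12 to 47.5 with a median of 26.4 in the low group. The groups overlapped through DOS.85 on the high side and DOS.56 and DOS.90 on the low side, and the log2 difference was 1.58 ± 0.28 (SE, limma adjusted p = 0.0046). ATP6V1A, the catalytic subunit of V1, had 21.2, 33.2 and 59.0 FPKM (lowest, median, highest) in the high group and 8.26, 12.1 and 17.8 in the low group. Every high tumour was above every low tumour, by 1.53 ± 0.21 on average (limma adjusted p = 0.00031). Its partner ATP6V1B2 did the same, at 47.8 to 111 FPKM against 9.94 to 38.5 (difference 1.66, limma adjusted p = 0.00031).

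The stalk subunit ATP6V1C1 was higher by 1.01 ± 0.22 (SE, limma adjusted p = 0.027) with overlapping groups, and its call ended without any 1 of 7 tumours (highest adjusted p = 0.0698, without DOS.114). The a4 isoform ATP6V0A4, best known from kidney, had 0.326, 2.36 and 14.1 FPKM in the high group, with the highest value in DOS.76, and 0 to 0.291 in the low group, without overlap (difference 1.77, limma adjusted p = 0.0035). ATP6V0D1, the widely expressed isoform of the d subunit, showed no such pattern. It had 53.5, 65.2 and 105 FPKM in the high group and 43.6, 68.4 and 97.8 in the low group, a difference of -0.01 with a 95% interval from -0.40 to 0.37 (limma adjusted p = 0.990). The groups overlapped over most of their range for d1, where the rule separated them for d2. The V0 ring subunits ATP6V0C and ATP6V0B stood at 0.94 (limma adjusted p = 0.0662) and 0.75 (limma adjusted p = 0.107) and were not called.

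The transporters and trafficking proteins that work beside the pump gave 3 higher members of 5 and 0 lower, against 0.798% of all genes higher. SLC9B2, a sodium and proton exchanger of osteoclasts, ran from 2.70 to 29.5 FPKM in the high group, with a median of 8.60, and from 0.0215 to 1.09 in the low group, with a median of 0.316. SNX10, a sorting nexin whose loss causes osteopetrosis (bone that is not resorbed), ran from 18.5 to 45.3 against 2.61 to 13.4 FPKM. Neither gene had overlapping groups, and the log2 differences were 2.89 ± 0.36 and 2.31 ± 0.24 (SE, limma adjusted p = 7.1e-05 and 6.1e-06). SLC4A2, the exchanger that removes bicarbonate, was higher by 1.23 ± 0.26 (limma adjusted p = 0.019) with overlap through DOS.85 on the high side. The chloride channel CLCN7 (0.52, limma adjusted p = 0.458) and its partner OSTM1 (1.05, limma adjusted p = 0.0807) were not called.

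Genes of fusion, attachment and osteoclast identity gave 7 higher members of 12 and 0 lower, against 0.798% of all genes higher. The list median was 1.31. OCSTAMP and DCSTAMP are membrane proteins needed for precursors to fuse. OCSTAMP had 3.64, 15.3 and 45.0 FPKM in the high group and 0, 0.0274 and 1.04 in the low group, where the 8 tumours other than DOS.6 were at 0.214 FPKM or lower. DCSTAMP was low in all tumours, at 1.09, 2.38 and 5.25 FPKM against 0, 0 and 0.284, and separated the groups as fully. The log2 differences were 3.89 ± 0.34 and 1.72 ± 0.18 (SE, limma adjusted p = 9.2e-07 and 6.1e-06).

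SIGLEC15, a sialic acid receptor of osteoclasts that signals through TYROBP, ran from 2.87 to 19.1 FPKM in the high group and from 0.0220 to 0.803 in the low group (difference 2.98, limma adjusted p = 9.4e-06). OSCAR, a costimulatory receptor for collagen, ran from 8.39 to 63.3 against 0 to 10.6 FPKM (difference 3.13, limma adjusted p = 0.0034). The groups overlapped for OSCAR through DOS.85 on the high side and DOS.116 on the low side. RAB38, a GTPase of lysosome-related organelles, was higher by 1.95 (limma adjusted p = 0.00092) and RUFY4 by 1.49 (limma adjusted p = 0.0037). RANK itself, TNFRSF11A, had 1.97, 5.08 and 10.6 FPKM in the high group and 0.877, 1.65 and 3.71 in the low group. Its difference was 1.13 ± 0.24 (limma adjusted p = 0.0255), and the call ended without any 1 of 6 tumours (highest adjusted p = 0.0644, without DOS.114). The attachment integrin chain ITGAV, which many cell types carry, was not called (0.55, limma adjusted p = 0.478).

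The protease list held 5 measured members, and 0 passed limma, also at an unadjusted p under 0.05. These were the lysosomal proteases CTSB, CTSS, CTSZ and CTSA and the surface protease ADAM8, with differences between -0.41 and 0.51. CTSK, ACP5, MMP9, CALCR, ITGB3 and CA2, which are commonly used to mark osteoclasts, were not among the genes tested under a symbol. Rows with only an Ensembl identifier were tested without names, so whether they hold any of these genes is not known here. Of 13 measured transcription factors and inhibitors, 0 passed in either direction by limma, with a list median of 0.25. In limma without adjustment, 6 of the 13 had a p under 0.05, against 1578 of the 14911 genes tested. NFATC1, the master regulator that RANK signalling switches on, stood at 5.70, 20 and 46.4 FPKM in the high group and 8.32, 16.5 and 42.4 in the low group (difference 0.31, 95% interval from -0.40 to 1.02, limma adjusted p = 0.785). The groups overlapped almost fully. SPI1, the myeloid factor PU.1, was nearest to the threshold at 1.62 (limma adjusted p = 0.0599).

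**Figure D3:**
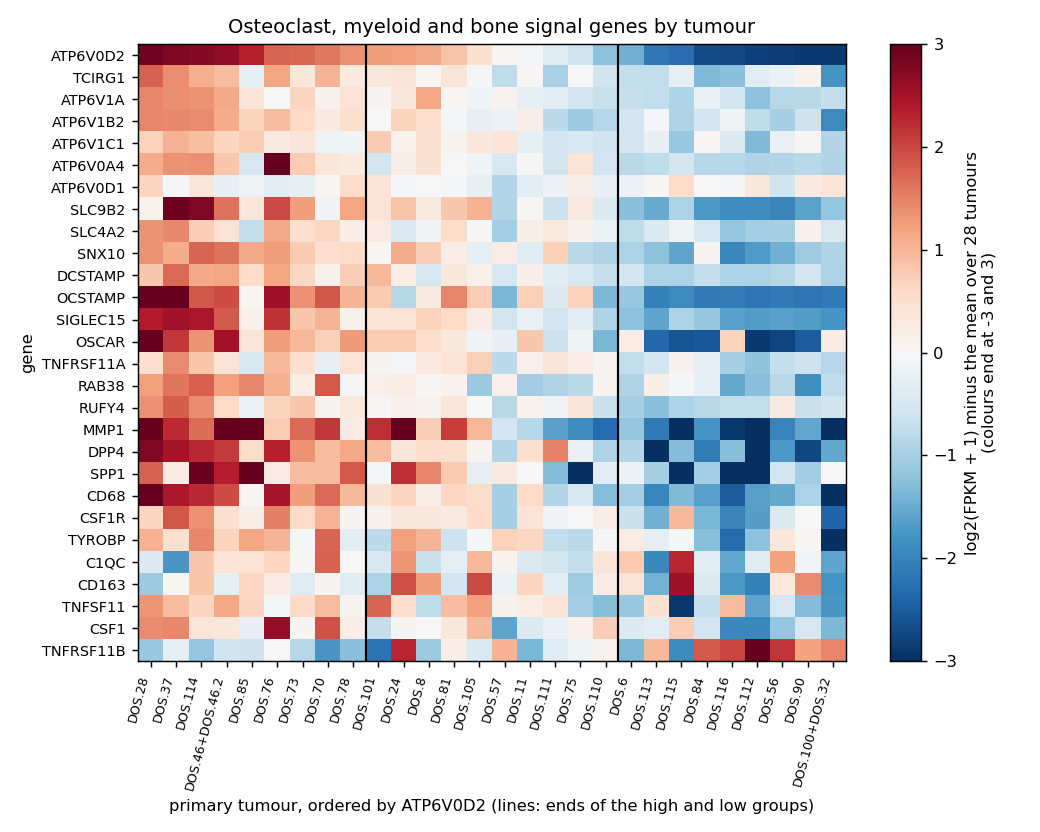
Colour gives log2(FPKM + 1) of each gene minus its mean over 28 tumours, with tumours ordered by ATP6V0D2 and vertical lines at the ends of the high and low groups. Called pump, fusion and receptor genes are mostly red at the left and blue at the right, ATP6V0D1, C1QC and CD163 show no such order, and TNFRSF11B is red in 7 of the 9 low tumours.

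The largest difference of a gene with a symbol was that of MMP1, interstitial collagenase, which cuts fibrillar collagen. It had 14.3, 54.7 and 172 FPKM in the high group and 0.0702, 1.93 and 4.70 in the low group, with no overlap (difference 4.53 ± 0.45 SE, limma adjusted p = 4.4e-06). DPP4, a membrane peptidase, had 26.6, 79.6 and 127 FPKM against 0.371, 4.66 and 9.11 (difference 3.82, limma adjusted p = 4.4e-06). SPP1, osteopontin, a matrix protein to which osteoclasts attach and which osteoblasts and macrophages also make, ran from 613 to 4095 FPKM against 47.4 to 521. Its groups did not overlap, and the difference was 3.13 ± 0.54 (limma adjusted p = 0.0037). It was the only 1 of 9 bone matrix genes that was called.

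The other named genes among the 10 largest differences were signalling and transport proteins of blood cells. PTPN22, a tyrosine phosphatase of immune cells, ran from 5.41 to 26.5 FPKM in the high group and from 0.0566 to 1.41 in the low group (difference 3.26 ± 0.26 SE, limma adjusted p = 2.4e-07). CD84, an adhesion receptor of leukocytes, ran from 9.92 to 75.1 against 0.377 to 3.53 FPKM (difference 3.52, limma adjusted p = 6.1e-06). MATK, a kinase that restrains SRC family kinases, ran from 24.4 to 100.4 against 1.56 to 10.6 FPKM (difference 3.15, limma adjusted p = 2.3e-06). None of these 3 genes had overlapping groups. SLC37A2, a sugar phosphate transporter of macrophages and osteoclasts, ran from 49.2 to 247 against 3.43 to 33.5 FPKM (difference 3.04, limma adjusted p = 6.0e-05). The osteoblast library had 31.5 FPKM of MATK and 111 of SLC37A2, each within the range of the high tumours.

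Some called genes act in lysosomes or on the pump and were picked out after their values were seen. GNPTAB, which makes the mannose 6-phosphate tag that sends enzymes to lysosomes, ran from 25.7 to 63.9 FPKM in the high group and from 10.5 to 24.7 in the low group (difference 1.23, limma adjusted p = 0.00169). HYAL1, a lysosomal hyaluronidase, was higher by 1.97 (limma adjusted p = 8.2e-05) and NAGLU, a lysosomal enzyme of heparan sulphate breakdown, by 1.14 (limma adjusted p = 0.0262). CCDC115, an assembly factor of the pump, was higher by 0.94 (limma adjusted p = 0.00939). Of the 9 measured members of the lysosome list, which holds none of these, 0 passed by limma, 1 at an unadjusted p under 0.05, and the median was 0.02. PSAP at 0.78 (limma adjusted p = 0.256) and LAMP1 at 0.27 (limma adjusted p = 0.673) had the smallest p of that list.

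The signals that reach osteoclasts from other cells gave 2 higher members of 10 and 0 lower, against 0.798% of all genes higher. RANKL, TNFSF11, had 16, 26.3 and 42.4 FPKM in the high group and 1.32, 6.94 and 32.6 in the low group. All high tumours were above 7 of the 9 low ones, and DOS.116 and DOS.113 made the overlap. The difference was 1.64 ± 0.39 (SE, limma adjusted p = 0.0470). That call rests near the threshold, as it ended in 15 of 18 fits that leave out 1 tumour (highest adjusted p = 0.106, without DOS.112) and in 5 of 10 other settings. CSF1 had 29.4, 45.0 and 222 FPKM in the high group and 8.34, 23.3 and 58.4 in the low group (difference 1.73 ± 0.40, limma adjusted p = 0.0424). Its call ended in 13 of the 18 fits (highest adjusted p = 0.0944, without DOS.112) and in 2 of 10 other settings.

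Osteoprotegerin, TNFRSF11B, did not pass the test. It had 2.25, 4.98 and 10 FPKM in the high group and 1.90, 29 and 104 in the low group, a difference of -1.92 ± 0.54 (SE, limma adjusted p = 0.136). In the low group DOS.6 and DOS.115 were as low as the high tumours, and the other 7 were above all of them. The log2 ratio of TNFSF11 to TNFRSF11B, each after adding 1 FPKM, was formed after the values were seen and is given without a test. It was above 0 in 9 of 9 high tumours, from 0.63 to 3.37, and in 2 of 9 low tumours, from -4.17 to 0.89. In the middle tumours it ran from -1.09 to 4.64.

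**Figure D4:**
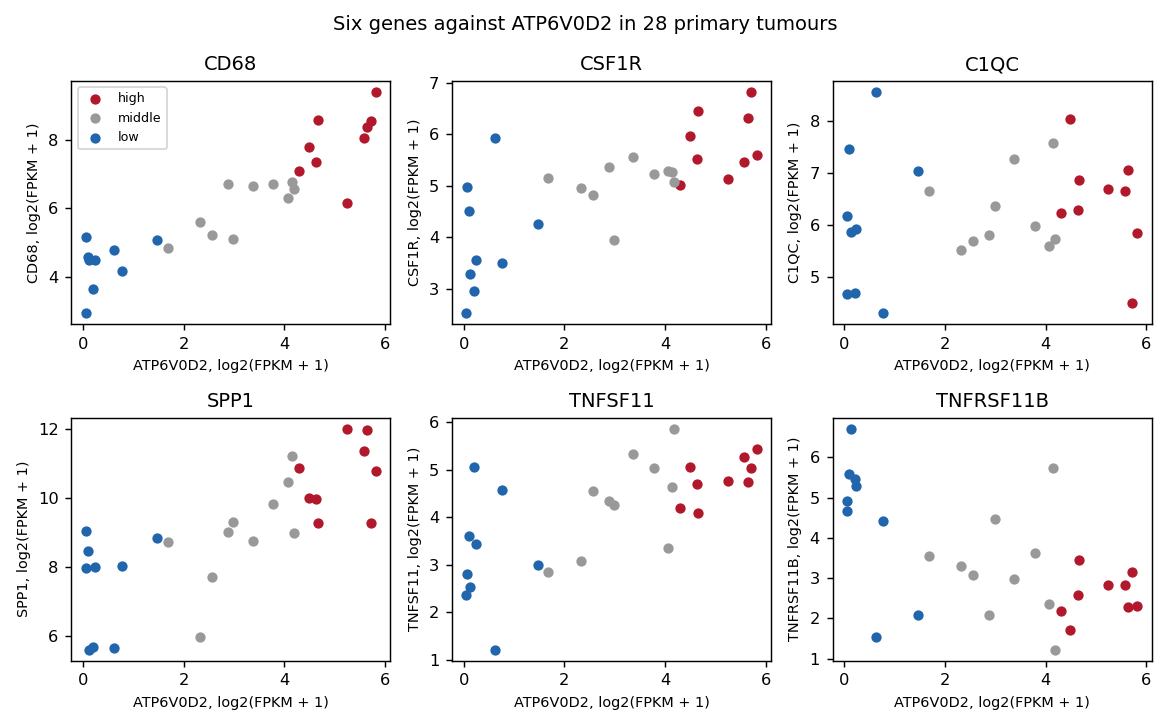
Each panel sets 1 gene against ATP6V0D2 in 28 tumours, both as log2(FPKM + 1), with the 9 high tumours red, the 10 middle ones grey and the 9 low ones blue. CD68 and SPP1 separate the high and low groups, C1QC does not, TNFSF11 and CSF1R are mostly higher in high tumours, and TNFRSF11B is above every high tumour in 7 low tumours and in some middle ones.

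Some myeloid genes were called and others were not, and a gene without a call may still differ between the groups. Of 4 receptors of osteoclast precursors, 1 was higher, CSF1R, the receptor of CSF1, with 31.5, 47.4 and 112 FPKM in the high group and 4.80, 10.9 and 60.0 in the low group (difference 1.86 ± 0.38 SE, limma adjusted p = 0.0166). The low tumour at 60.0 FPKM was DOS.115. TYROBP, the adaptor of SIGLEC15 and of TREM2, stood at 1.66 (limma adjusted p = 0.0921) and TREM2 at 0.18 (limma adjusted p = 0.942).

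Of 14 macrophage genes, 1 was higher and 0 lower by limma. The list median was 0.39, 13 of the 14 differences were above 0, and 2 members had an unadjusted p under 0.05. The called gene was CD68, a lysosomal membrane protein abundant in macrophages and osteoclasts alike, with 69.4, 266 and 672 FPKM against 6.64, 21.4 and 34.7 and no overlap (difference 3.56 ± 0.37 SE, limma adjusted p = 6.1e-06). C1QC, a complement gene that marks tissue macrophages, was not called. It had 21.8, 100.1 and 261 FPKM in the high group and 18.9, 59.6 and 373 in the low group (difference 0.39, 95% interval from -0.70 to 1.48, limma adjusted p = 0.835). The haemoglobin scavenger receptor CD163 had 5.52, 13.5 and 23.8 FPKM against 2.42, 9.20 and 80.4 (difference 0.27, limma adjusted p = 0.896). Both groups overlapped widely in C1QC and CD163, and the highest tumour of all 18 for each was DOS.115, of the low group. LAPTM5, a lysosomal membrane protein of blood cells, named after its values were seen, had the next largest difference of the list. It had 60.8, 144 and 213 FPKM in the high group and 7.49, 66.5 and 92.2 in the low group (difference 1.52 ± 0.44 SE, limma adjusted p = 0.152).

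Summed over the 13 macrophage genes other than CD68, the high tumours ran from 275 to 1074 FPKM with a median of 423, and the low tumours from 94.1 to 1358 with a median of 243. The highest sum was that of DOS.115, where ATP6V0D2 stood at 0.538 FPKM. Of the 20 genes of the macrophage list, 14 had a row, and all 14 passed the filter of at least 1 FPKM in at least 2 tumours. With the mean of the macrophage list, CD68 included, as a covariate, 92 genes were higher and 20 lower, of which 88 and 3 were among the 119 and the 10. CSF1R (1.38, limma adjusted p = 0.0162) stayed called in that fit, and ATP6V1C1, TNFRSF11A and CSF1 did not (limma adjusted p = 0.0602, 0.0678 and 0.117).

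Other lists showed few calls against a background of 0.865% in either direction. Bone matrix and osteoblast genes gave SPP1 as the 1 called of 9 members, with a list median of 0.64. IBSP, bone sialoprotein, named after its values were seen, ran from 164 to 5044 FPKM in the high group and from 48.6 to 2351 in the low group (difference 1.49, limma adjusted p = 0.502). The osteocyte list had 0 of 7 called by limma, 2 at an unadjusted p under 0.05, with its nearest members ANKH at 1.72 (limma adjusted p = 0.25) and DMP1 at 3.12 ± 1.07 (SE, limma adjusted p = 0.282). DMP1, a matrix protein of osteocytes, had a median of 197 FPKM in the high group and 9.79 in the low group, but the low tumour DOS.100 with DOS.32 reached 350.4. Cartilage (0 of 7), fibroblast (0 of 7), endothelial (0 of 11) and smooth muscle and pericyte genes (0 of 7) had medians of -0.39, -0.00, 0.24 and 0.08. Their nearest members to the threshold were COMP at -1.88 and CHAD at 0.84, VIM at -0.56 and FBLN1 at -0.33, TEK at 0.59 and PECAM1 at 0.60, and TAGLN at -1.10 and MYH11 at -0.58.

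In limma without adjustment, 1 cartilage gene and 1 fibroblast gene had a p under 0.05, and 0 endothelial or smooth muscle genes did. Over all genes tested, 1578 of 14911 did. Lymphoid and other blood cell lists had 0 calls as well, and 0 members at an unadjusted p under 0.05. T cell genes (0 of 14) had a median of -0.26, with LCK at -0.47 and ZAP70 at -0.46 nearest. B and plasma cell genes (0 of 4, CD79B at -0.47 and POU2AF1 at -0.22), neutrophil genes (0 of 5, CSF3R at -0.45), mast cell genes (0 of 4, CPA3 at 0.26 and HDC at 0.07), erythroid genes (0 of 3, EPB42 at 0.29 and AHSP at 0.86) and MHC class II genes (0 of 2, CIITA at -0.39 and CD74 at 0.20) were similar. Cell cycle genes (0 of 20) had a median of -0.30, with MCM7 at -0.48 and CDC20 at -0.55 nearest, and the limma adjusted p was 0.525 or higher for every member. Interferon (0 of 15, IFIT2 at 0.78 and IFIH1 at 0.52), immediate early (0 of 13, FOS at 1.62 and JUNB at 0.64), hypoxia (0 of 4, ANKRD37 at -0.53 and EGLN3 at -0.59), epithelial (0 of 3, CLDN4 at 0.36 and EPCAM at -0.25), adipocyte (0 of 2, PLIN1 at -0.09 and PLIN4 at 0.08) and iron or mitochondrial genes (0 of 7, SLC11A2 at 0.90 and SLC40A1 at 0.50) had none called either, and 1 of these, SLC11A2, had an unadjusted p under 0.05. Skeletal muscle genes had the highest median among the lists without a call, 0.88 over 9 members, 3 of them at an unadjusted p under 0.05 by limma, with MYLPF at 2.07 (limma adjusted p = 0.271) and MYL1 at 1.38 (limma adjusted p = 0.335). Their summed level ran from 2.56 to 296 FPKM in the high group and from 5.56 to 30.4 in the low group. The part of muscle tissue in the comparison was not tested.

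**Figure D5:**
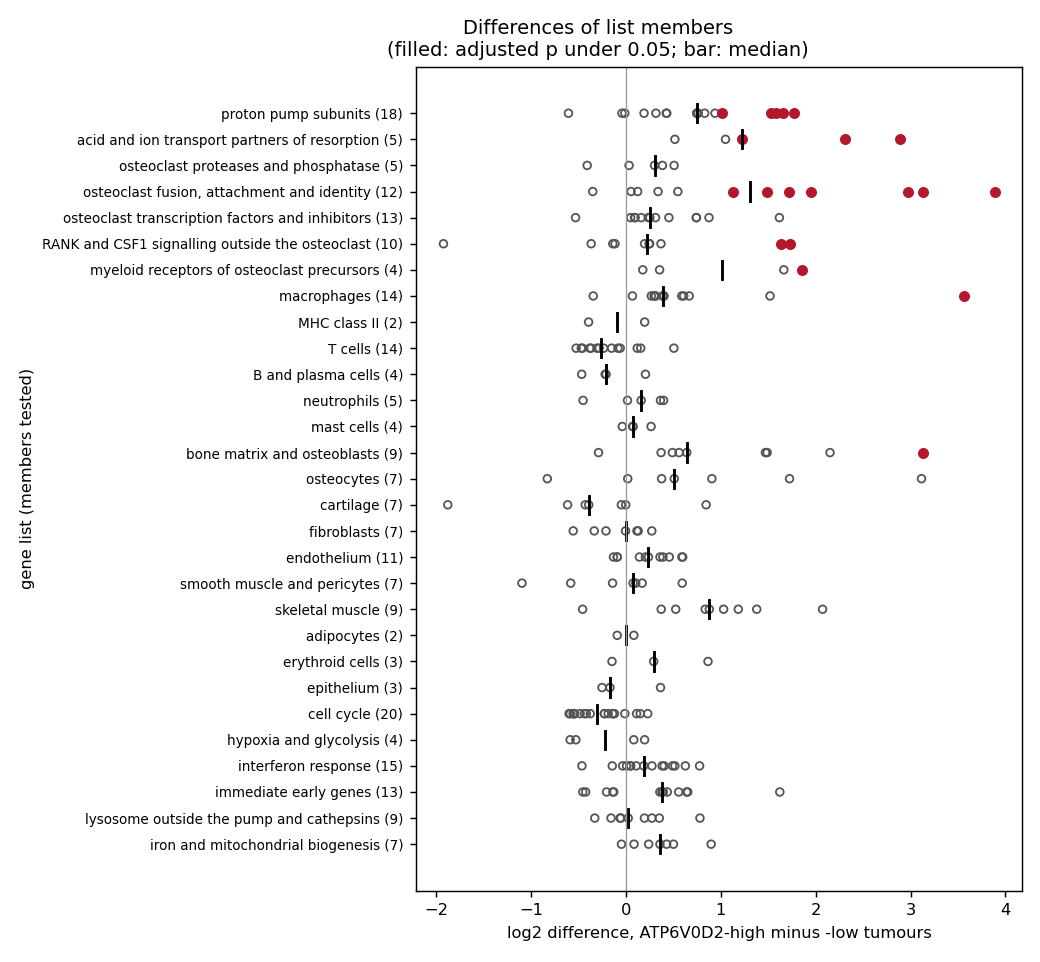
Each point is 1 measured gene of a list, placed by its log2 difference between 9 high and 9 low tumours; filled points passed the limma test over all genes, and a bar marks the list median. Filled points lie in the osteoclast and precursor lists, with CD68 among macrophage genes and SPP1 among bone matrix genes as the only others.

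Few genes were lower in the high group, and 8 of the 10 carry a symbol. FBXO27, a component of ubiquitin ligases that binds glycoproteins, had 1.03, 3.50 and 5.63 FPKM in the high group and 5.27, 7.46 and 12.2 in the low group (difference -1.25 ± 0.26 SE, limma adjusted p = 0.0173). IGSF11, a cell adhesion molecule, ran from 0.00955 to 0.635 against 0.486 to 3.61 FPKM (difference -1.07, limma adjusted p = 0.0161). The groups overlapped narrowly for both. The others were DLK2 (-1.23), LRIG3 (-1.19), the calcium channel subunit CACNA1A (-1.15), TMEM74B (-1.12), MINA (-0.86) and the protocadherin-like CDHR2 (-0.74), with limma adjusted p between 0.0310 and 0.0497. Each of those 6 lost its call in at least 10 of 18 fits that leave out 1 tumour.

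The 10 middle tumours took no part in the test. For 115 of the 119 higher genes (96.6%) their median lay between the medians of the low and high groups, as it did for 40.4% of all genes tested. The 119 were called for a wide gap between the groups, and a middle median falls more easily into a wide gap. These shares are therefore a description and cannot be compared as a test. With ATP6V0D2 as a continuous term over 28 tumours, 170 genes went up with it and 32 down, and 109 and 8 of these were among the 119 and the 10. Among genes with a symbol, those most like ATP6V0D2 over 28 tumours by Pearson correlation of log2(FPKM + 1) were PTPN22 (r = 0.97, Spearman rho = 0.94), MATK (0.94 and 0.94), SIGLEC15 (0.93 and 0.95), ABCB4 (0.93 and 0.97), CD68 (0.91 and 0.91), DPP4 (0.91 and 0.92), CD84 (0.91 and 0.91), MMP1 (0.91 and 0.88), SNX10 (0.90 and 0.89) and OCSTAMP (0.90 and 0.92). The row ENSCAFG00000012982, without a symbol, had r = 0.98, above all of these. The genes were chosen for that value, which is a description, and the tumours share 1 scaling per library between the genes. ABCB4, a phospholipid transporter best known from liver, was low, at 1.29 to 4.36 FPKM in the high group and 0.0151 to 0.328 in the low group (difference 1.69, limma adjusted p = 1.3e-05).

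The osteoblast culture and the 2 cell lines give the level of these genes outside tumour tissue, with 1 library each and no test. OCSTAMP was listed at 0 in the osteoblasts and in OSCA.78, and OSCA.8 had 0.0198 FPKM. CSF1R was at 0.269 FPKM in the osteoblasts, 0.108 in OSCA.8 and 0.0579 in OSCA.78, below all low tumours. PTPN22 was at 0.687, 0.168 and 0.0336 FPKM in the same order, within or below the range of the low tumours. Other genes were not low in the osteoblasts, which had 96.4 FPKM of TCIRG1, within the range of the high tumours, and 34.5 of NFATC1. SIGLEC15 was at 2.79 FPKM there, close to the lowest high tumour at 2.87. SLC4A2 was at 90.2 FPKM in the osteoblasts, above every high tumour, and at 22.7 in OSCA.8 and 69.5 in OSCA.78, within their range. ATP6V1A was at 24.4 FPKM in OSCA.8, also within the high range. It was below every low tumour in the osteoblasts and OSCA.78, at 7.53 and 6.98. MMP1 was at 0.240 and 0.150 FPKM in the osteoblasts and OSCA.78 and at 2.71 in OSCA.8. TNFSF11 stood at 0.0227 FPKM in the osteoblasts, 0.553 in OSCA.8 and 0.851 in OSCA.78, below all 28 tumours. CSF1 was at 122 FPKM in the osteoblasts, above every low tumour. In the metastasis DOS.6M, OCSTAMP was listed at 0, SIGLEC15 stood at 0.0421 and CD68 at 17.2 FPKM, all within the range of the low group.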

How the data were processed

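Total RNA libraries of 34 dog samples were analysed from 1 table deposited by the authors, with 23988 rows and 1 column per library. Its header names no unit, and the values were read as FPKM deposited by the authors, since FastQC 0.11.2, TopHat2 2.0.13, Cufflinks 2.2.1 and the build canFam3 were used per the submitters' processing notes. The sources used here do not give their order, annotation or parameters. Rows with only an Ensembl identifier (9653) were not given names. Genes with at least 1 FPKM in at least 2 of 28 tumours (14911, 11668 with a symbol) were tested on log2(FPKM + 1), which understates differences of low genes, in limma 3.58.1 under R 4.3.3 (trend and robust options, two-sided, Benjamini-Hochberg adjustment, threshold 0.05). Only the 18 tumours compared entered the fit, and ATP6V0D2 was left out. FPKM of an averaged pair is back-transformed from the mean log2 value. Groups, the 29 gene lists and tests were chosen with earlier results of these data known. Called members of the 7 osteoclast and precursor lists, the 10 largest differences each way, up to 3 members of other lists (or, without a call, the 2 of smallest adjusted p) and the 10 highest correlations are named. A gene of the neutrophil list that this rule names is not reported here. The limma step was tested on simulated data. Python 3.11.15 with numpy 2.4.6, pandas 2.3.3, scipy 1.17.1 and matplotlib 3.10.9 was used beside R. The alternatives were 10 settings and, chosen after seeing the data, leaving out each of the 18 tumours. Gene neighbours came from RefSeq's UU_Cfam_GSD_1.0, another build than the table's, in which 10759 of the tested symbols were found.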

Additional observations from a re-analysis of the deposited data

Results flagged for a closer look

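In groups of 9, the highest or lowest tumour stood apart by Dixon's test on the log2 scale in 8 of 150 groups of named genes, and chance gives about 1 in 20. In the low group, DOS.6 stood at 1.04 FPKM for OCSTAMP against 0 to 0.214 in the others and at 0.468 for MYL1 against 0 to 0.203, and DOS.56 at 2.36 for RUFY4 against 0.170 to 0.827. DOS.115 stood at 0.291 FPKM for ATP6V0A4 against 0 to 0.109, and at 18 for CPA3 and 3.11 for HDC, both of the mast cell list, against 0 to 1.55 and 0 to 0.106. In the high group, DOS.114 stood at 0.635 FPKM for IGSF11 against 0.00955 to 0.281 and at 1.98 for CSF3R against 0.0210 to 0.527.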

How the results depend on the processing

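The count of higher genes was 119 and stayed between 92 and 170 under the 10 other settings, and between 84 and 127 with 1 tumour left out. The count of lower genes was 10 and moved more: 6 without the filter, 6 after quantile normalisation, 32 with ATP6V0D2 as a continuous term, 20 with DOS.100 and DOS.32 as separate tumours, 20 with the macrophage list as covariate, and 3 to 17 with 1 tumour left out. The cause was not tested. Among 35 named genes with a call, none changed sign in any setting, and 24 kept the call in every setting run. The other 11 were ATP6V1C1, TNFRSF11A, TNFSF11, CSF1, IGSF11, DLK2, LRIG3, CACNA1A, TMEM74B, MINA and CDHR2. IGSF11 lost it only with the continuous term (limma adjusted p = 0.0896). No paired analysis was possible because the labels give the tumours no numbers shared between the groups. Without counts, sampling noise of low values cannot be given.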

Other observations

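The 3 largest differences among all genes tested belonged to rows without a symbol. ENSCAFG00000009905 had 268, 1066 and 3228 FPKM (lowest, median, highest) in the high group and 1.34, 8.76 and 66.1 in the low group, a log2 difference of 6.94 ± 0.63 (SE, limma adjusted p = 2.3e-06). ENSCAFG00000012982 had 58.7, 288 and 445 FPKM against 0.353, 1.24 and 10.5 (difference 6.48 ± 0.41, limma adjusted p = 1.3e-08). ENSCAFG00000017319 had 478, 1237 and 2190 FPKM against 3.05, 6.54 and 54.7 (difference 6.44 ± 0.47, limma adjusted p = 8.1e-08). None of the 3 had overlapping groups, and all exceed the difference of every gene with a symbol. In the osteoblast library and the lines OSCA.8 and OSCA.78 the first stood at 4.31, 3.35 and 0.213 FPKM. The second stood at 1.62, 0.584 and 0.337 FPKM and the third at 3.54, 0.905 and 0.257. The table does not pair these identifiers with names.

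The 20 tested genes nearest to ATP6V0D2 in the RefSeq order, 10 on each side, had a median log2 difference of 0.01, and 0 of them were called. The 20 nearest to TNFSF11 had a median of 0.27 and a highest of 0.74, for KBTBD6, below the 1.64 of TNFSF11, and 0 were called. On the whole chromosome of TNFSF11, chosen after the values were seen, 5 of the 123 other genes tested were higher (GPR183, KCTD12, NDFIP2, PCCA and SUCLA2), against 0.798% of all genes tested, and the median over the 123 was 0.24. Of the 20 genes nearest to DCSTAMP, 2 were higher, ATP6V1C1 and OXR1, against the same share of all genes. They were the only higher ones among the 218 other genes tested on that chromosome. The 20 nearest to CSF1 had a median of -0.06, and 0 were called. On the whole chromosome, 6 of 516 other genes tested were higher for CSF1 and 1 of 109 for ATP6V0D2, with medians of -0.12 and 0.03.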
